A study of Homo sapiens with 4 samples.

Results

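The C/EBP genes and their Tribbles partners were followed after knockdown of the transcription factor IRF1 in MV4-11 cells, a human acute myeloid leukemia (AML) cell line. The 8 genes were taken by symbol from a table of 23622 genes: CEBPA, CEBPB, CEBPD, CEBPE, CEBPG, CEBPZ, TRIB1 and TRIB2. RNA was sequenced from 2 libraries of cells with a control hairpin (sh-NC) and 2 libraries of cells with a hairpin against IRF1 (sh-IRF1). Both groups were labelled wild type, the control as untreated and the other as an IRF1 knockdown. According to the study's methods, the hairpins were carried by a lentivirus and infected cells were selected with puromycin. Which of the study's hairpins each sh-IRF1 library carried is not given in the sources used here. Nothing in the labels says whether 2 libraries of a group came from separate cultures, so p-values measure the spread between these libraries, which may be technical.

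C/EBP proteins are basic leucine zipper (bZIP) transcription factors, which bind DNA as pairs, with themselves, with each other or with bZIP factors of other families. C/EBPα drives the commitment of progenitors to the granulocyte and monocyte lineages, and its gene is a recurrent target of mutation in AML. C/EBPβ acts in monocytes, macrophages and emergency granulopoiesis, C/EBPδ in the acute phase response and C/EBPε in late granulocyte maturation, while C/EBPγ lacks a transactivation domain and acts mainly through its partners. CEBPZ shares the family's name but is not a bZIP factor; it is a nucleolar protein of ribosome assembly. The Tribbles pseudokinases TRIB1 and TRIB2 bring the ubiquitin ligase COP1 to C/EBPα and so promote its breakdown, and either can cause AML in mice.

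Expression is given as the normalized read count, the reads of a gene divided by 1 size factor per library. Reads assigned to genes, calculated back from the normalized counts, came to 17635908 to 18695337 per library. Read numbers of single genes below were obtained in the same way. Fold changes are differences of log2(normalized count + 1), a scale on which low genes appear to change less than they did. The limma test covered the 14120 genes that reached a normalized count of 10 in 2 or more libraries, and a gene was called at a Benjamini-Hochberg adjusted p under 0.05. All 8 genes entered the test, CEBPE only through the sh-NC libraries. The smallest p that an exact two-sided permutation test allows for 2 against 2 libraries is 0.333, and the calls therefore draw on limma's spread shared across genes. The targeted gene IRF1 had normalized counts of 785 and 738 in sh-NC and 430 and 432 in sh-IRF1, or 56.6% of the control level (log2 fold change -0.82, SE 0.0904, adjusted p = 1.69e-10). Genes on the opposite strand overlap 22.9% of the exonic bases of IRF1. The use of strand in counting is not given, so reads of those genes may be included. All 10 marker genes listed for the line were present, among them PTPRC, CD33, FLT3 and SPI1. Of the 12 markers listed for other cell types 8 were not among the genes analysed here, and the 4 others summed to normalized counts between 108 and 292 per library; of these the B cell gene CD79A was higher in sh-IRF1, with 50.3 and 43.1 in sh-NC and 190 and 250 in sh-IRF1, and its part in the results below was not tested.

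The 2 hairpin target sequences that the study lists for IRF1 are shown because they bear on whether a C/EBP or Tribbles transcript could be matched directly.
sh-IRF1 hairpin 1: gcaccagtgatctgtacaact
sh-IRF1 hairpin 2: ggaaattacctgaggacatca
Each of these 21-base targets was found in GENCODE 44 transcripts of 1 gene, IRF1. The longest run of bases shared with a transcript of any of the 8 genes was 8 bases for hairpin 1 and 9 bases for hairpin 2.

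CEBPB, CEBPG, TRIB1 and, by a small margin, CEBPA were lower in sh-IRF1, and none of the 8 genes was higher. CEBPB fell to 62.5% and TRIB1 to 63.8% of the sh-NC level, CEBPG to 76.5% and CEBPA to 92.4%. Over all genes tested, 42.2% were called, 21.9% lower and 20.3% higher. CEBPB and TRIB1, the 2 genes lower by over 0.5 on the log2 scale, stand beside 7.56% of all genes tested that were lower and 8.27% that were higher by that much, 15.8% in both directions. CEBPD, CEBPE, CEBPZ and TRIB2 were not called. Libraries of the 2 groups did not overlap for any of the 8 genes, 7 of them with sh-IRF1 lower. Over all genes tested this share was 69.2%, 35.0% with sh-IRF1 lower and 34.2% with sh-IRF1 higher. CEBPE is among the 7, and since it passed the filter only through the sh-NC libraries, its groups had to lie apart. The median log2 fold change was -0.26 over the 8 genes, CEBPE included, and -0.0019 over all genes tested. With CEBPE left out, since the filter favoured a lower value for it, the middle of the other 7 genes was CEBPZ at -0.14. In bulk RNA, fewer cells that express a gene and less of its RNA per cell cannot be told apart.

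**Figure D1:**
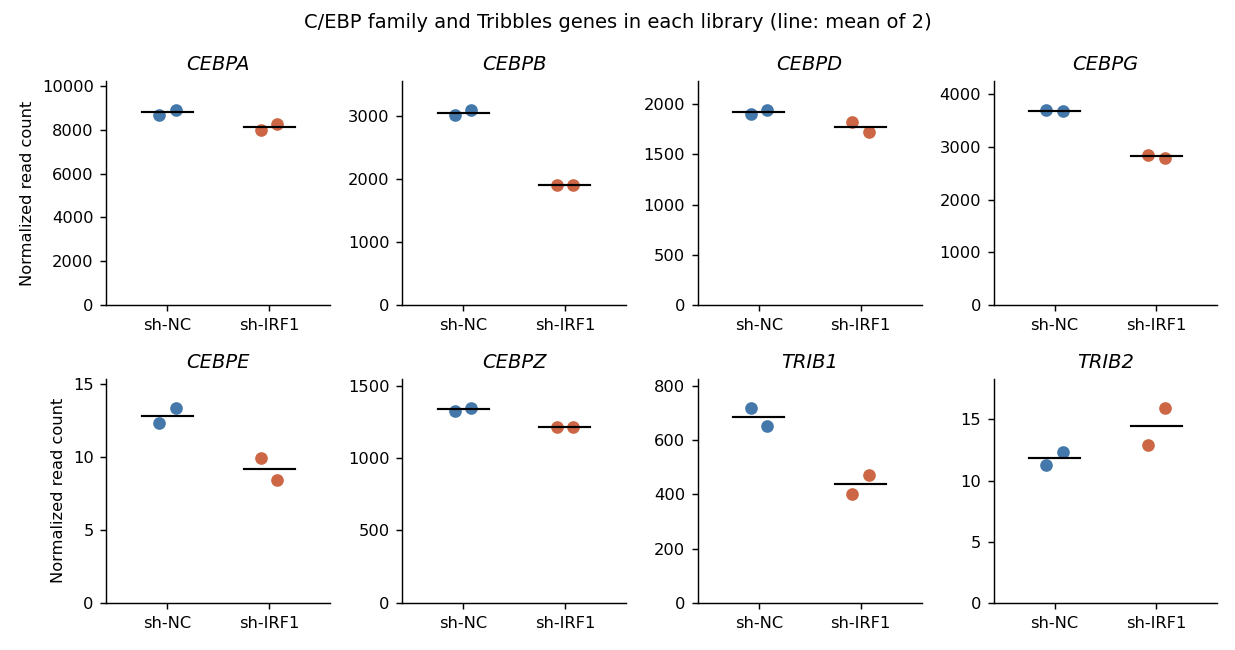
Normalized read count of each gene (vertical axes, starting at 0, with their own scale) in the 2 sh-NC libraries (blue) and the 2 sh-IRF1 libraries (orange), with a line at each group's mean. CEBPB, at 62.5% of the sh-NC mean, TRIB1, at 63.8%, and CEBPG, at 76.5%, stand well below their controls, and TRIB2 is the one gene with higher values in sh-IRF1.

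CEBPA, the myeloid lineage factor, was the most abundant of the 8 transcripts. Its normalized counts were 8684 and 8880 in sh-NC and 8000 and 8235 in sh-IRF1. Both sh-IRF1 libraries lay below both controls, and the gap between groups was wider than the gaps within them. The log2 fold change was -0.11 (SE 0.0316, adjusted p = 0.00294, limma). The call was lost without sh-IRF1 replicate 1 (-0.093, adjusted p = 0.0945) and when values were scaled by library totals (-0.069, adjusted p = 0.0713). CEBPA is a gene of a single exon at chr19:33299934-33302534 on the minus strand of GRCh38, and 43.9% of its exonic bases overlap unnamed long non-coding RNAs on the opposite strand. The use of strand in counting is not given in the sources used here, so reads of the overlapping genes may be included.

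The 250 bases before the RefSeq start of CEBPA (GRCh38.p14, chr19:33302535-33302784, minus strand) are shown because they separate CEBPA from CEBPA-DT, a transcript that starts just beyond them and runs in the opposite direction. Capitals mark the letters TATAAA, whose first base lies 30 bases before the start.
CEBPA promoter: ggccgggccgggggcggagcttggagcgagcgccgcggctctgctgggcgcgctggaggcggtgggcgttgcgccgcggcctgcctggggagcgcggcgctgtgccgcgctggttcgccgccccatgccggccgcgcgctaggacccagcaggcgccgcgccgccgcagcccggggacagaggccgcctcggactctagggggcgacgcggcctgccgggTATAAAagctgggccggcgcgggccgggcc
The RefSeq starts of CEBPA and CEBPA-DT lie 287 bases apart. CEBPA-DT, a long non-coding RNA, had normalized counts of 165 and 127 in sh-NC and 71.6 and 77.8 in sh-IRF1. Its 2 sh-IRF1 values were both far below the lower control (log2 fold change -0.95, SE 0.209, adjusted p = 0.000208). The ratio of CEBPA-DT to CEBPA counts was 0.0190 and 0.0143 in the sh-NC libraries and 0.00895 and 0.00944 in the sh-IRF1 libraries, and was lower in both of the latter.

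CEBPB, the monocyte and macrophage factor, had the lowest adjusted p of the 8 genes. Its normalized counts were 3012 and 3093 in sh-NC and 1906 and 1912 in sh-IRF1. Libraries of one group differed by far less than the groups did. The log2 fold change was -0.68 (SE 0.0472, adjusted p = 1.18e-16), and it ran from -0.70 to -0.66 when each library was left out in turn. Ordered by p, CEBPB ranked 255 among the 14120 genes. CEBPB is also a gene of a single exon (chr20:50190830-50192668, plus strand), and 12.6% of its bases overlap the antisense gene CEBPB-AS1. CEBPB-AS1 itself had between 25.7 and 34.7 normalized counts in the 4 libraries and was not called (log2 fold change 0.23, adjusted p = 0.653).

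CEBPG, the partner without an activation domain, had normalized counts of 3692 and 3675 in sh-NC and 2847 and 2790 in sh-IRF1. The 2 groups were well apart and the libraries within each nearly equal. The log2 fold change was -0.39 (SE 0.0423, adjusted p = 1.43e-10), with a range of -0.40 to -0.37 over the fits that left out 1 library. CEBPG lies at chr19:33373685-33382686 on the plus strand, 71150 bases from CEBPA, and shares no exonic bases with another gene. Its neighbour on the other side, PEPD, a peptidase gene 4263 bases away, was higher in sh-IRF1, from 1331 and 1478 to 2241 and 2299 (log2 fold change 0.69, adjusted p = 1.24e-14). Along this stretch of chromosome 19, CEBPA-DT, CEBPA and CEBPG were thus lower and PEPD higher.

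CEBPD, the acute phase factor, had normalized counts of 1897 and 1938 in sh-NC and 1818 and 1719 in sh-IRF1. The sh-IRF1 libraries were lower, but the distance between them was larger than that from the higher one to the controls. CEBPD was not called (log2 fold change -0.12, SE 0.0532, 95% interval -0.22 to -0.0096, adjusted p = 0.0734). CEBPE, the late granulocyte factor, was close to the detection limit with 12.3 and 13.4 normalized counts in sh-NC and 9.95 and 8.43 in sh-IRF1, which stand for 12, 13, 10 and 9 reads. With so few reads the log2 fold change of -0.44 had an SE of 0.624 (adjusted p = 0.606), so a change of that size was not detectable at this depth.

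CEBPZ, the ribosome assembly factor, had normalized counts of 1325 and 1346 in sh-NC and 1213 and 1213 in sh-IRF1. The libraries within a group were almost identical, yet the step between the groups was small and missed the threshold (log2 fold change -0.14, SE 0.0617, adjusted p = 0.0663). On the opposite strand CEBPZOS, a gene for a small mitochondrial protein, was lower (log2 fold change -0.31, adjusted p = 0.000484). CEBPZ shares 21.6% of its exonic bases with CEBPZOS and a long non-coding RNA, so part of its reads is uncertain.

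TRIB1 was the Tribbles member that changed. Its normalized counts were 719 and 651 in sh-NC and 402 and 472 in sh-IRF1. Replicates differed more than for CEBPB, but every sh-IRF1 value was well below every control. The log2 fold change was -0.65 (SE 0.0964, adjusted p = 2.19e-07) and ran from -0.77 to -0.53 when each library was left out in turn. TRIB2 was near the detection limit in all libraries, with 11.3 and 12.3 normalized counts in sh-NC and 12.9 and 15.9 in sh-IRF1 (log2 fold change 0.26, SE 0.571, adjusted p = 0.746). The nearest relative outside the 8 genes, TRIB3, a pseudokinase induced by the stress factors ATF4 and CHOP, had more reads than either over a shorter exonic length. It had 7705 and 7626 normalized counts in sh-NC and 4489 and 4417 in sh-IRF1 (log2 fold change -0.78, SE 0.0348, adjusted p = 9.82e-24).

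**Figure D2:**
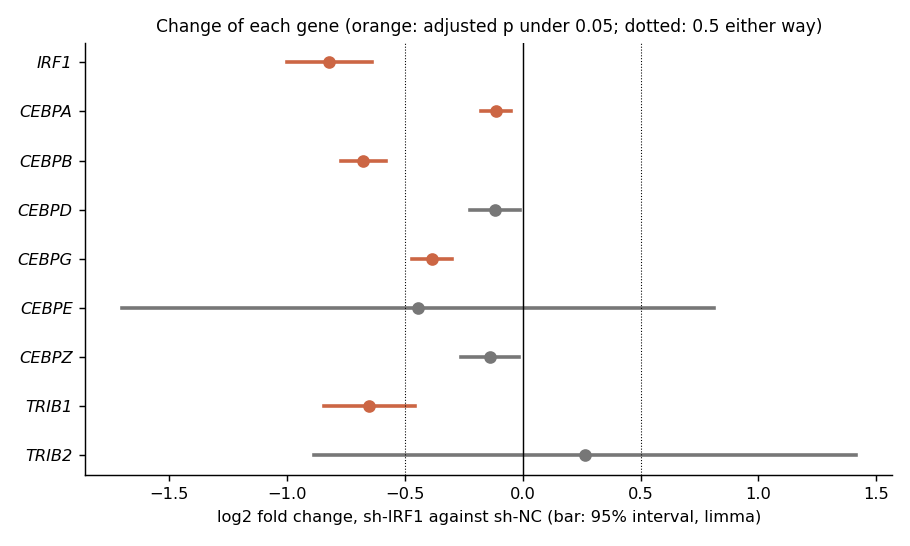
Log2 fold change of IRF1 and the 8 genes, sh-IRF1 against sh-NC (horizontal axis), with limma's 95% interval as a bar; orange marks an adjusted p under 0.05 and dotted lines mark 0.5 in either direction. CEBPB at -0.68 and TRIB1 at -0.65 lie beyond the dotted line, CEBPG at -0.39 and CEBPA at -0.11 inside it, and the bars of CEBPE and TRIB2 span it on both sides.

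To compare genes with each other, counts were divided by the exonic length in kilobases (kb). In sh-NC the mean levels per kb of the 5 bZIP genes were 3377 for CEBPA, 1660 for CEBPB, 1531 for CEBPD, 908 for CEBPG and 7.27 for CEBPE. CEBPZ stood at 380, TRIB1 at 167 and TRIB2 at 2.58 per kb. In sh-IRF1 CEBPB (1038 ± 2.50 per kb, SD, n = 2) came to lie below CEBPD (1413 ± 55.9), whereas in sh-NC it had lain above it (1660 ± 31.1 against 1531 ± 23.4). The order of the other genes was the same in both groups. The ratio of CEBPD to CEBPB counts was 0.630 and 0.627 in the sh-NC libraries and 0.954 and 0.899 in the sh-IRF1 libraries.

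The summed level of the 5 bZIP genes was 7409 and 7558 per kb in sh-NC and 6272 in each sh-IRF1 library. CEBPA held 45.1% and 45.2% of that sum in sh-NC and 49.0% and 50.5% in sh-IRF1. The share of CEBPB was 22.1% and 22.3% in sh-NC and 16.5% and 16.6% in sh-IRF1. The pool therefore held relatively more CEBPA and less CEBPB transcript, as seen also in the ratio of CEBPB to CEBPA counts, which was 0.347 and 0.348 against 0.238 and 0.232. CEBPD went from 20.4% and 20.5% to 23.2% and 21.9%, and the mean share of CEBPG from 12.1% to 11.1%. A share can rise only because another falls. The ratio of CEBPD to CEBPA counts was 0.218 and 0.218 in sh-NC against 0.227 and 0.209 in sh-IRF1, which overlap. The shares do not overlap between the groups, and they were not tested, since an exact permutation test of 2 against 2 libraries cannot go below 0.333. They depend on the annotated exonic lengths, whereas the ratios of counts within a library depend neither on length nor on the scaling between libraries.

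**Figure D3:**
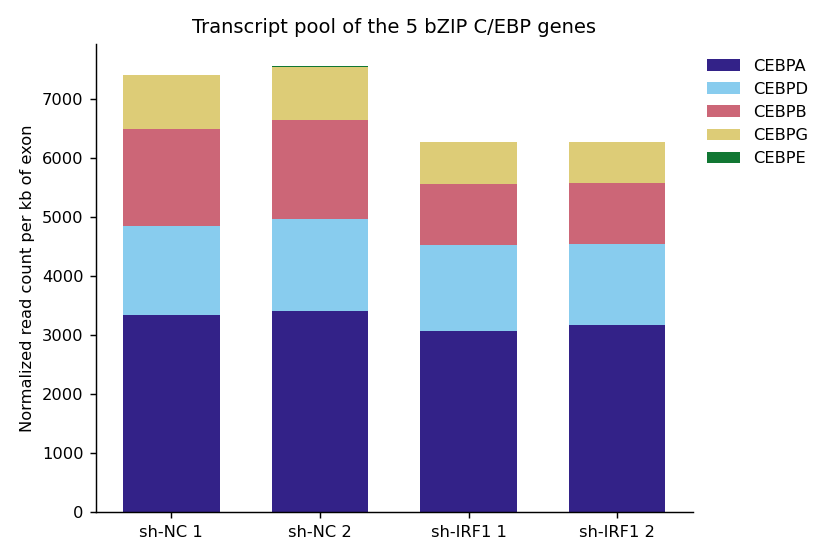
Stacked level of the 5 bZIP C/EBP genes in each library, as normalized read count per kb of exon (vertical axis, starting at 0). The sum is lower in both sh-IRF1 libraries, the CEBPB segment shrinks from 22.2% to 16.6% of the sum on average, and CEBPE is too low to be seen.

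RefSeq promoter windows of 300 bases (250 before and 50 after a start) were on hand for 6 of the 8 genes, 8 windows in all. CEBPD and TRIB1 had no window and were not searched. They were searched on both strands for the interferon regulatory factor (IRF) element (GAAA, any 2 bases, GAAA), the C/EBP element TTGCNNAA, the C/EBP-ATF element TGATGCAA and, added after the letters had been seen, TATAAA. The IRF element, present in 3.57% of 35116 windows, and the C/EBP element, present in 10.5%, had no match in the 8 windows searched. The letters TATAAA, present in 11.5% of all windows, stood before CEBPA as shown and 29 bases before the second RefSeq start of CEBPB. TGATGCAA, the half-and-half element that C/EBP and ATF4 pairs bind, is in 0.866% of all windows and stood 42 bases before the second start of CEBPG (chr19:33374071-33374078). The 30 bases around both are shown with the match in capitals.
CEBPB second start, chr20:50190789-50190818, plus strand: acgggccgccctTATAAAtaaccgggctca
CEBPG second start, chr19:33374060-33374089, plus strand: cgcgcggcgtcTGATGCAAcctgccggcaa
A match of letters, or its absence, is a description of these windows and was not tested for binding. Most of all windows lack the IRF and C/EBP elements, so their absence here is not a result about these genes. The study's own CUT&Tag mapping of IRF1 in MV4-11 cells was not used here.

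Other bZIP factors, with which C/EBP proteins can pair, changed in both directions. Of 21 genes tested, 10 were lower and 3 higher (61.9% called, beside 42.2% of all genes tested). Their median log2 fold change was -0.058, and in 6 other fits of these data it ran from -0.17 to -0.014. The count of lower genes was smaller whichever library was left out. The stress factors ATF5 (19053 and 19698 in sh-NC, 13434 and 12941 in sh-IRF1, log2 fold change -0.56, adjusted p = 4.28e-22) and ATF4 (9878 and 10049 against 7135 and 6889, -0.51, adjusted p = 2.88e-18) fell together with JDP2 (973 and 867 against 432 and 489, adjusted p = 2.85e-13), a repressor that pairs with JUN. DDIT3, which encodes the C/EBP relative CHOP, had 146 and 189 normalized counts in sh-NC and 97.5 and 133 in sh-IRF1 (-0.54, adjusted p = 0.0189). Its call was lost without sh-NC replicate 2 (-0.35) or without sh-IRF1 replicate 1 (-0.32). JUN, an AP-1 subunit, rose from 282 and 262 to 1053 and 1082 (1.97, adjusted p = 1.08e-22), and ATF7 (0.47) and JUND (0.13) also rose, the latter without a call when sh-NC replicate 1 was left out (0.064).

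Of the 10 genes listed for the Tribbles and COP1 ligase, 5 were lower and 2 higher (70% called, beside 42.2% of all genes tested, median -0.13). COP1 itself was not called, at 1134 and 1271 normalized counts in sh-NC and 1197 and 1263 in sh-IRF1 (log2 fold change 0.035, 95% interval -0.098 to 0.17). Beside TRIB3, MAP2K1, the MEK1 kinase that Tribbles proteins bind (-0.47, adjusted p = 4.06e-07), and CUL4A, the ligase scaffold (-0.27, adjusted p = 4.14e-06), were lower. STK40, a Tribbles-related pseudokinase that also binds COP1, rose from 1308 and 1290 to 1916 and 1925 (0.56, adjusted p = 9.56e-12), and DDA1, a ligase subunit, rose too (0.31, adjusted p = 2.46e-05).

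Transcription factors that work beside C/EBPα in myeloid cells were split, with 4 of 14 higher and 4 lower. The share called was 57.1%, beside 42.2% of all genes tested. Their median was -0.012, which was above 0 in 2 other scalings. Without sh-IRF1 replicate 2 the count of higher genes was 2. SOX4, a gene known to be repressed by C/EBPα, rose from 1206 and 1282 to 2006 and 1979 (log2 fold change 0.68, adjusted p = 4.96e-14). SPI1, the gene of PU.1, was slightly higher (0.17, adjusted p = 6.46e-05). KLF5 rose to 206% of the sh-NC level (1.02, adjusted p = 0.000992), and its call was lost without sh-IRF1 replicate 2 (0.86). LMO2 (-0.38), CBFB (-0.33) and the monocyte factor KLF4 (-0.81) were lower. RUNX1, MYB, IRF8 and IKZF1 were not called.

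Of the known C/EBP targets among granule proteins and receptors, 10 of 18 tested genes were higher and 6 lower (median 0.22). The share called was 88.9%, beside 42.2% of all genes tested. The granule protease PRTN3 rose from 18417 and 19054 to 27736 and 26841 (log2 fold change 0.54, adjusted p = 4.33e-23), the lysozyme gene LYZ by 0.85 and the granule ribonuclease RNASE2 by 0.87. The receptor genes CSF3R, CSF2RA and IL6R were also called higher, while the receptor gene CSF1R was called lower (-0.19, adjusted p = 0.0357). MPO, the myeloperoxidase of azurophil granules, fell from 477 and 443 to 185 and 158 (-1.42, adjusted p = 7.78e-13), and MMP9 (-3.40) and the monocyte receptor CD14 (-2.81) were lower. MMP9 had 204 and 188 reads in sh-NC and 29 and 12 in sh-IRF1, and CD14 had 37 and 41 against 11 and 2. For MMP9 the log2 fold change ran from -4.04 to -2.76 when each library was left out in turn. The log2 fold change of CD14 was -1.78 without sh-IRF1 replicate 2 and -3.83 without sh-IRF1 replicate 1, and -1.81 with a pseudocount of 8. These targets thus did not move as a block. Among the 6 lower genes, BPI and S100A9 entered the test only through the sh-NC libraries, where they are higher, so they had to differ. The count of lower genes was 3 when sh-NC replicate 1 was left out and also 3 among genes that reached 50 in 2 libraries.

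Of 12 inflammatory targets tested, 3 were higher and 4 lower (58.3% called, beside 42.2% of all genes tested). Their median was -0.050, which was above 0 when either sh-IRF1 library was left out. The chemokine gene CXCL8 rose from 95.4 and 85.3 to 255 and 281 (log2 fold change 1.56, adjusted p = 1.42e-10) and the complement gene C3 by 1.11, while CCL2 fell from 751 and 763 to 255 and 229 (-1.65, adjusted p = 5.01e-18), TNF by 0.62 and CCL5 by 0.44. ORM1, an acute phase gene on 10 and 4 reads in sh-NC and 23 and 30 in sh-IRF1, was called higher (1.80, adjusted p = 0.0103), but not without sh-NC replicate 2 (1.23) or without either sh-IRF1 library (1.94 and 1.65).

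Of 11 genes tested that were listed as lipid and adipogenic targets, 9 were lower and 1 higher (median -0.49). The share called was 90.9%, beside 42.2% of all genes tested. The study had already reported SREBF1, SCD and FASN among its top lower genes in this RNA sequencing. Their direction was therefore known when the list was chosen, and the count is no independent result. SREBF1, the regulator of fatty acid synthesis, fell from 11728 and 11361 to 5141 and 4928 (log2 fold change -1.20, adjusted p = 1.50e-31), and the enzyme genes SCD (-0.88) and FASN (-0.79) fell with it. PPARG, the adipocyte factor that C/EBP proteins induce, had 8 and 4 reads in sh-NC and 17 and 23 in sh-IRF1 (1.55, adjusted p = 0.0444). It entered the test only through the sh-IRF1 libraries, where it is higher, so it had to differ, and its call was lost without sh-NC replicate 2 (1.13) or without either sh-IRF1 library (1.72 and 1.38). Of the 11 genes listed with CEBPZ in ribosome assembly and RNA methylation, 6 were lower and 0 higher (median -0.17). The share called was 54.5%, beside 42.2% of all genes tested. MAK16, a factor of large subunit assembly, fell from 1121 and 1168 to 353 and 380 (-1.64, adjusted p = 3.87e-21), followed by WTAP, a subunit of the RNA methyltransferase (-0.62, adjusted p = 4.72e-12), and RRP1B (-0.33, adjusted p = 1.71e-07). METTL3, METTL14, NOC3L, NOC4L and NSA2 were not called.

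The genes whose pattern over the 4 libraries lay nearest to that of CEBPB or TRIB1 were found among 9986 other genes with a mean of at least 100, by the Euclidean distance of centred log2 values. For CEBPB these were LY75 (361 and 374 in sh-NC, 230 and 230 in sh-IRF1, distance 0.00926), DTX4 (distance 0.0137) and IER5L (distance 0.0168). For TRIB1 they were LSS (1146 and 1023 against 640 and 744, distance 0.0178), ITGAV (distance 0.0558) and CCDC86 (distance 0.0600). The measure rests on 4 libraries and so on the size of the step between groups and on the replicate differences.

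The nearest protein-coding genes beside the other C/EBP and Tribbles genes were higher where called, apart from PTPN1. Over all genes tested, 20.3% were called higher and 21.9% lower. Beside CEBPB, PEDS1 was higher (log2 fold change 0.45, adjusted p = 1.70e-05) and PTPN1, 317652 bases away, was lower (-0.16, adjusted p = 0.0135). Beside TRIB1, LRATD2 rose from 40.0 and 37.0 to 96.5 and 115 (1.43, adjusted p = 1.21e-05), although it lies 1114039 bases away, and NSMCE2 was not called (0.21, adjusted p = 0.0576). Beside CEBPD, which was not called, SPIDR (0.24) and PRKDC (0.093) were slightly higher. Beside CEBPZ, NDUFAF7 was not called (-0.30, adjusted p = 0.106), and beside TRIB2, LPIN1, 889500 bases away, was higher (0.25, adjusted p = 0.0300).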

How the data were processed

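RNA libraries of 4 MV4-11 samples (2 sh-NC, 2 sh-IRF1) were prepared with an Illumina TruSeq kit. The submitters' processing notes name HISAT2 2.0.5 and hg38; the counting tool and the use of strand are not given in the sources used here. The authors deposited a normalized signal, in which a library's reads were all divided by the same size factor; all values were whole multiples of 1 step per library within 0.001 of a read. Symbols matched 23456 of 23622 identifiers. Values were tested as log2(value + 1) with limma 3.58.1 (trend, robust; R 4.3.3), for genes that reached 10 in 2 libraries, and the scripts were tested on simulated data. Positions and exonic lengths came from GENCODE 44 and promoters from RefSeq (GRCh38.p14). The 8 genes and the gene lists were chosen with earlier results of these data known. Of each list, up to 3 genes per direction were named by smallest p, provided that the adjusted p was under 0.05, the groups did not overlap and the mean reached 10, with IRF1, the 8 genes, DDIT3, TRIB3, neighbouring and overlapping genes, and the 3 nearest patterns; other genes were named after their values were seen. A planned protein comparison was not made, since no protein sequences were used here. Alternatives covered scaling, filter, pseudocount, minimum fold, shrinkage, a replicate block and leaving out each library.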

Additional observations from a re-analysis of the deposited data

How the results depend on the processing

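Of 115 values for the 8 genes and IRF1 under the alternatives, 113 kept their direction and their side of the threshold and 0 reversed. CEBPA lost its call when scaled by library totals (-0.069, adjusted p = 0.0713), leaving 3 of the 8 genes lower, and without sh-IRF1 replicate 1; its log2 fold change without each library ran from -0.13 to -0.093. At a minimum log2 fold change of 1, 0 of the 8 genes were called lower, with 389 genes higher and 318 lower over all genes. A fit with the replicate number as a block called the same counts among the 8 genes (4 lower, 2 beyond 0.5). Over all genes it called 2903 higher and 3147 lower against 2861 and 3092. Replicate differences correlated at 0.0113 over 9987 genes, so same-numbered libraries showed no common shift across genes. Whether they shared a culture or batch is not given in the labels. Scaling by library totals gave 3433 higher and 2645 lower; it moved the list medians of the bZIP factors to -0.014, the myeloid factors to 0.032 and the inflammatory targets to -0.0059, and scaling by upper quartiles moved the myeloid median to 0.0038. Without a filter the medians were -0.13 for bZIP factors, 0.30 for granule and receptor targets and -0.21 for inflammatory targets. With a value of at least 50 in 2 libraries, granule and receptor targets had 3 lower calls and a median of 0.43, inflammatory targets a median of -0.22, and lipid targets 0 higher calls and a median of -0.60. Without each library in turn, bZIP factors had 6 to 7 lower calls and a median of -0.17 to -0.11, myeloid factors 2 to 4 higher calls and a median of -0.036 to -0.014, granule and receptor targets 3 to 5 lower calls and a median of 0.20 to 0.33, inflammatory targets a median of -0.041 to 0.020, and lipid targets 0 to 1 higher calls. The causes were not tested. The planned edgeR and DESeq2 tests were not run: the values were whole multiples of 1 step in all 4 libraries, but a check of units did not accept 1 column as recovered reads. With 9 to 17 reads per library, changes as small as those of CEBPE and TRIB2 could not be resolved at this depth.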
